A study of Homo sapiens with 13 samples.

Results

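M1 is a human non-small cell lung carcinoma line recovered from bone metastases. Its 3 arrays were set against the 4 arrays of the control cells from which it was derived, 7 of the 13 arrays of the series. The labels say that control cells were injected into the heart, that the cells growing in bone were isolated, and that each isolate was injected again into 10 mice to grade its metastatic activity. The control arrays are of 2 kinds, 2 of cells carrying a luciferase reporter and 2 of cells without it, and control below is the mean of both kinds. The labels do not say whether M1 carries the reporter, which parental line was used, or whether M1 is a single clone. The other 6 arrays hold 2 further lines made in the same way, M4 and M5, with 3 arrays each. Each array was hybridised with a pool of 3 cell groups. The labels call the arrays biological replicates, but nothing states that they came from separate cultures, so p-values measure only the spread between these arrays. Signals are log2 values from an Affymetrix expression array, 1 unit is a 2-fold change, and the number of arrays limits the precision.

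Bone metastases of carcinomas grow by disturbing the balance between osteoblasts, which lay down bone, and osteoclasts, which resorb it. Tumour cells release cytokines and growth factors that recruit osteoclasts, and the resorbed matrix in turn sets free growth factors such as TGF-beta and the insulin-like growth factors. To reach and settle in marrow, cells also draw on adhesion molecules, proteases and the actin machinery. A comparison of a bone-selected line with its parental cells asks which of these genes differ in culture, away from the bone itself.

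The arrays of M1 had the profile of a carcinoma line with mesenchymal features. The keratin KRT18 averaged 12.5 ± 0.24 in M1 and 12.6 ± 0.08 in control, and KRT8 averaged 10.2 ± 0.43 in M1 and 10.5 ± 0.08 in control (SD, n = 3 and 4). The keratins KRT7 and KRT19 were lower in M1, at 6.76 and 10.2 against 7.10 and 10.6 in control, with overlapping arrays. The mesenchymal filament gene VIM averaged 13.1 ± 0.10 in M1 and 13.1 ± 0.09 in control. E-cadherin (CDH1) and EPCAM, the usual surface markers of epithelia, were in the lowest 25% of probe sets on all 7 arrays, whose lower quartiles lay at log2 signals of 4.41 to 4.70. The lung lineage factor NKX2-1 averaged 5.50 in M1 and 5.31 in control. Of the 8 measured epithelial and lung carcinoma markers, limma called 0 in either fit described below, and 1 and 3 had an unadjusted p under 0.05 without and with the block. Over all 11963 genes these counts were 368 and 1138.

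Before any gene is described, 1 property of the arrays has to be given. The 62 control probe sets of the array divided the 13 arrays into 4 clusters. Of these probe sets, 45 report added transcripts, and the others include those of GAPDH and ACTB, which measure the cells' own RNA. The clusters therefore rest in part on RNA of the cells. Cluster 1 held M1 replicate 2 with the first array of each kind of control, and cluster 2 held M1 replicate 1 with the second array of each kind of control. M1 replicate 3 lay in cluster 3 together with M4 replicates 2 and 3, without any control array. Across all genes, the nearest array belonged to the same cluster for 13 of the 13 arrays, and to the same group for 4. The difference between the 3-prime and 5-prime probe sets of ACTB, a measure of RNA integrity, was 0.30 on M1 replicate 3 and -0.13 and -0.11 on M1 replicates 1 and 2, against -0.19 to -0.04 on the control arrays. The same measure for GAPDH was 0.09 to 0.15 in M1 and 0.05 to 0.16 in control. Each comparison was therefore fitted without and with the clusters as a block, and the differences within cluster 1 and within cluster 2, which share no arrays, are given beside it. The part of RNA integrity in the results was not tested.

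Few genes separated M1 from control. Over 11963 genes, 3 rose and 0 fell in M1 at an adjusted p under 0.05 without a block (limma), which is 0.0251% and 0% of the genes tested, and 368 genes had an unadjusted p under 0.05. With the clusters as a block, 17 genes rose and 11 fell, 0.142% and 0.092% of the genes, and 1138 had an unadjusted p under 0.05. The 3 genes called without the block were among the 17. The block was taken up as a result of its own after its calls had been seen. Without regard to any fit, the 3 M1 arrays lay above all 4 control arrays for 281 genes (2.35%) and below all of them for 430 genes (3.59%). Across genes, which are not independent replicates, the M1 difference within cluster 1 and that within cluster 2 correlated with r = 0.264 over all 11963 genes and r = 0.364 over the 6078 genes above the median signal. Here and for the chromosomes below, a gene counted as above the median signal if the higher of its M1 and control means was. Beyond 2-fold in both clusters lay 12 genes, 9 higher and 3 lower in M1, and 0 genes were beyond 2-fold in opposite directions. The 9 higher genes were CES1, SNAP25, IL13RA2, HCLS1, CHRNA9, SUSD5, MCAM, CRYBG1 and COL3A1, and the 3 lower ones were FBN2, IL6 and IGFBP2, all listed here because of these values.

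**Figure D1:**
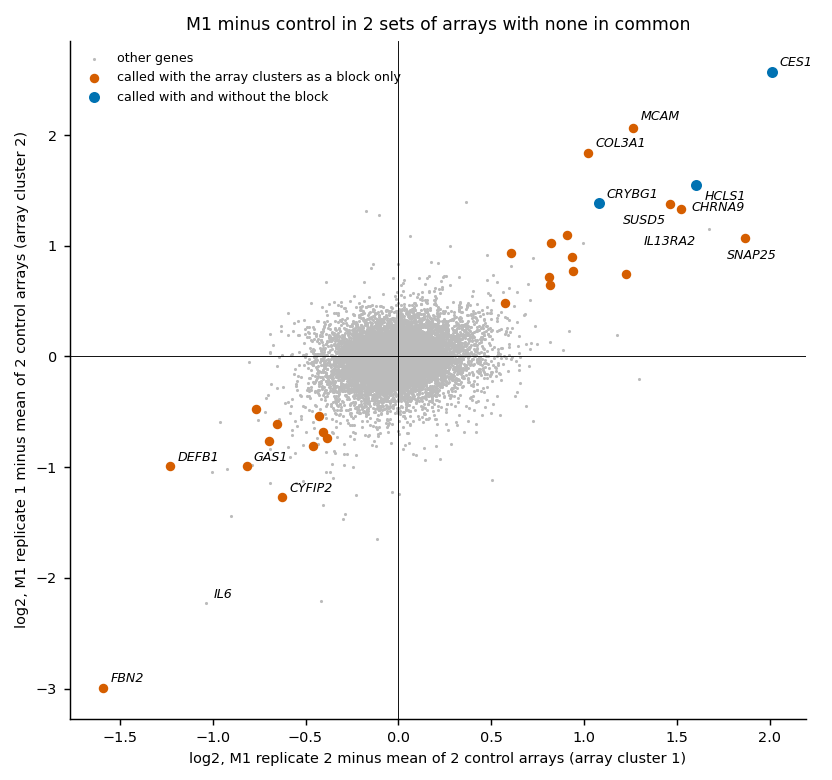
Each point is 1 of 11963 genes, placed by its log2 difference between M1 and the 2 control arrays within array cluster 1 (horizontal axis) and within array cluster 2 (vertical axis); colours mark the genes called in each fit. CES1 lies farthest to the upper right, at 2.01 and 2.57, and FBN2 farthest to the lower left, at -1.59 and -2.99.

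The 3 genes called in both fits code for a drug-metabolising esterase, a signalling adaptor of blood cells and an actin-associated protein. CES1, the carboxylesterase that hydrolyses esters, drugs and lipids in liver and lung, had signals of 8.05, 7.49 and 7.33 on the M1 arrays, against 5.44 and 5.05 in control with luciferase and 5.52 and 5.90 in control without it. The lowest M1 array lay above the highest control array by more than the whole range of the controls. CES1 rose by 2.15 ± 0.24 on the log2 scale (limma's standard error), which is 4.42-fold, with an adjusted p of 0.00769, and by 2.11 ± 0.23 with the block (adjusted p = 0.00353). It was the largest rise among the genes called in either fit.

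CRYBG1, an actin-associated protein also known as AIM1 and studied as a tumour suppressor in melanoma, had signals of 8.26, 8.15 and 8.40 in M1. The control signals were 7.37 and 6.99 with luciferase and 6.76 and 6.76 without it. The groups did not overlap, and the M1 arrays were the tighter group, with an SD of 0.12 in M1 and 0.29 in control. CRYBG1 rose by 1.30 ± 0.15 (adjusted p = 0.00769), and by 1.29 ± 0.12 with the block (adjusted p = 0.00202).

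HCLS1, a cortactin-like adaptor that links receptor signalling to actin in blood cells, had signals of 5.61, 5.42 and 4.87 in M1. The control signals were 3.89 and 4.30 with luciferase and 3.74 and 3.82 without it. All 4 control signals lay below the lower quartile and none of the M1 arrays did, so the fold is less certain than the order of the groups. HCLS1 rose by 1.36 ± 0.16 (adjusted p = 0.00769), and by 1.43 ± 0.16 with the block (adjusted p = 0.00353).

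These 3 calls were not equally firm under removal of arrays. Without a block, leaving out M1 replicate 1 or the first control array without luciferase ended all 3 calls, with adjusted p-values of 0.0643 for all 3 genes in the first case and between 0.0626 and 0.0643 in the second, while the differences stayed between 1.21 and 2.05. Leaving out M1 replicate 3 ended the call of CRYBG1 (adjusted p = 0.0528). Leaving out M1 replicate 2 (adjusted p = 0.0935) or the first control array with luciferase (0.0586) ended that of HCLS1. With the block, CRYBG1 was called in 7 of 7 such fits, and CES1 and HCLS1 in 6 of 7, both lost only without M1 replicate 2, with adjusted p-values of 0.0677 and 0.103. Each of the 3 genes was read by 1 probe set.

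The promoters of CRYBG1 and HCLS1 are shown as the sequences at the start of genes that rose in both fits. They come from the RefSeq table of GRCh38.p14 and span 300 bases each, from upstream of the annotated start of the gene into its first bases. The promoter of CRYBG1 lies at chr6:106360467-106360766 on the plus strand and that of HCLS1 at chr3:121660854-121661153 on the minus strand. Capitals mark matches, on either strand, to 3 short motifs that were searched for: TGANTCA, the AP-1 element; CAGNTG or CANCTG, forms of the E-box bound by basic helix-loop-helix factors such as TCF4; and GGAAGT or ACTTCC, an ETS element.
CRYBG1: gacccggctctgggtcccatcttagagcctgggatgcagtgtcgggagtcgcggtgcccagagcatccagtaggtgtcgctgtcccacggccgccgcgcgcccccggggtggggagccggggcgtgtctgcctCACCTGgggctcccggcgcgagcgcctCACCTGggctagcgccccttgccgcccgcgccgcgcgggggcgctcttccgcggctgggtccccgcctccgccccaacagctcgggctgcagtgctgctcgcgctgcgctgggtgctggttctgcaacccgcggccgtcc
HCLS1: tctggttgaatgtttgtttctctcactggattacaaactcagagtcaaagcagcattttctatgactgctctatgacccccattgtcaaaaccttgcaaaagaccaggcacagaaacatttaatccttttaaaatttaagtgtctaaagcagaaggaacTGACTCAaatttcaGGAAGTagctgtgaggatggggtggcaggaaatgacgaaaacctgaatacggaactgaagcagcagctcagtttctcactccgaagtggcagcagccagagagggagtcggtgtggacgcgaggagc
The CRYBG1 promoter held 2 E-box matches, and 75.7% of its bases were G or C. The HCLS1 promoter held 1 AP-1 match and 1 ETS match, and 45.3% of its bases were G or C. Of 27305 promoters of this length, 49.9% held the E-box, 7.76% the AP-1 element and 23.2% the ETS element. A match is a description of the letters and shows no binding.

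**Figure D2:**
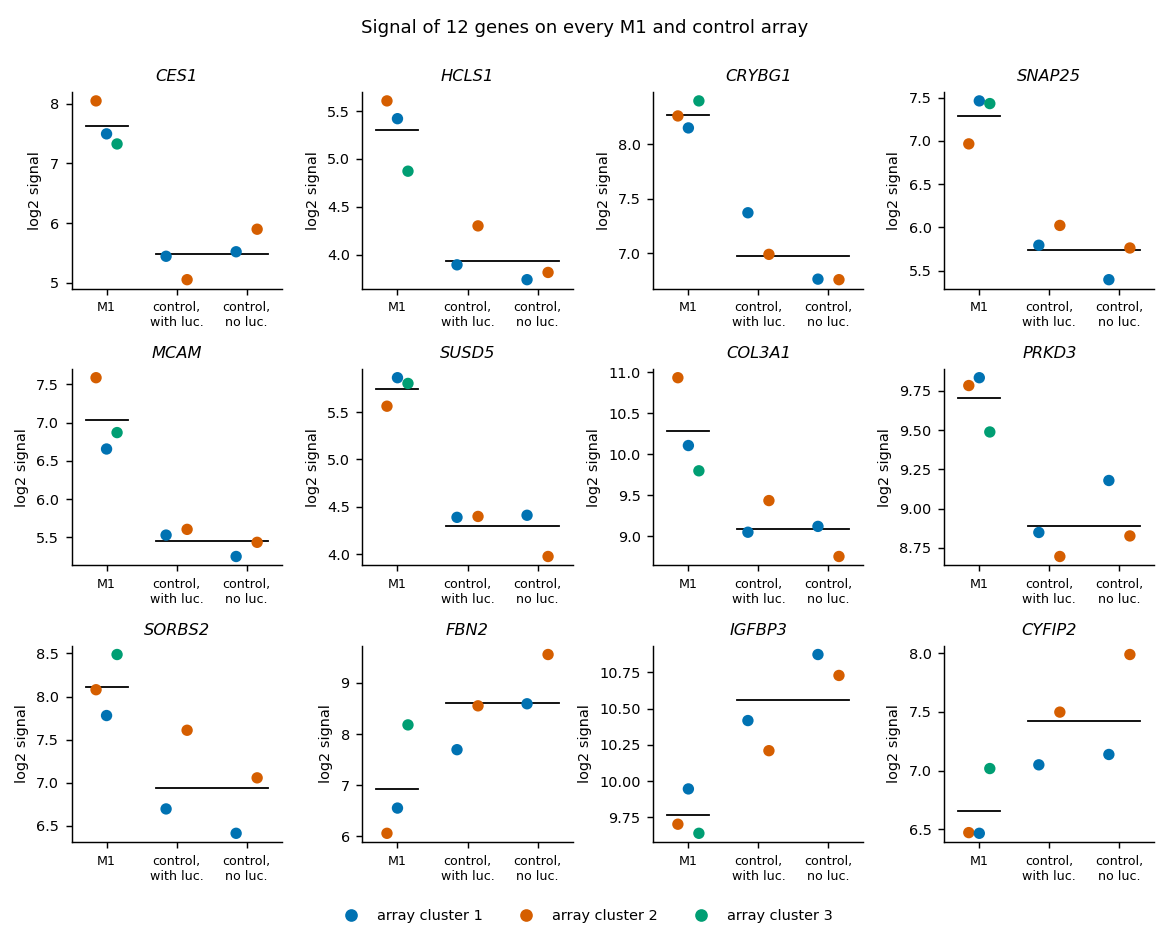
Log2 signal of 12 genes on the 3 M1 arrays, the 2 control arrays with luciferase and the 2 without it; each point is an array, coloured by its array cluster, and lines are group means. For CES1 the M1 arrays sit between 7.33 and 8.05 and the control arrays between 5.05 and 5.90, while for FBN2 M1 replicate 3, at 8.18, lies among the controls.

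MCAM and SUSD5 were among the rises seen only with the block. MCAM, a cell adhesion molecule of endothelium and melanoma, had signals of 7.59, 6.66 and 6.87 in M1, against 5.53 and 5.60 in control with luciferase and 5.25 and 5.44 in control without it. The groups stood apart on every array. MCAM rose by 1.71 ± 0.15 with the block (adjusted p = 0.00202), and its difference of 1.58 ± 0.28 without it had an adjusted p of 0.144. SUSD5, a sushi-domain membrane protein, had signals of 5.56, 5.86 and 5.80 in M1, against 4.39 and 4.40 in control with luciferase and 4.41 and 3.98 in control without it. All 4 control arrays lay below the lower quartile for SUSD5. It rose by 1.53 ± 0.17 with the block (adjusted p = 0.00353), against an adjusted p of 0.431 without it.

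MCAM and SUSD5 belong, with PRKD3 and TCF4, to the 4 genes that the published study of these lines singled out on these same arrays, so the direction of these genes cannot count as independent evidence. PRKD3, a protein kinase of the protein kinase D family that acts in vesicle release and cell movement, had signals of 9.78, 9.83 and 9.49 in M1. Its control signals were 8.85 and 8.70 with luciferase and 9.18 and 8.83 without it. PRKD3 rose by 0.92 ± 0.09 with the block (adjusted p = 0.00315), and a second probe set differed by 0.65 without the block, where the chosen one differed by 0.81. TCF4, an E-box-binding transcription factor linked to mesenchymal states, had signals of 6.52, 6.12 and 6.41 in M1, against 5.67 and 5.73 in control with luciferase and 5.61 and 5.47 in control without it. The groups did not overlap, but TCF4 was called by neither fit, with a difference of 0.76 ± 0.16 and an adjusted p of 0.119 with the block. All 7 probe sets of TCF4 had higher means in M1, by 0.16 to 0.73. For all 4 of these genes the M1 arrays lay above every control array, and 3 of the 4 were called with the block, where 0.142% of all genes rose.

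SNAP25, SCRN1 and CHRNA9 also rose with the block. SNAP25, a membrane fusion protein of synaptic vesicles, had signals of 6.97, 7.46 and 7.43 in M1, against 5.79 and 6.02 in control with luciferase and 5.39 and 5.76 in control without it. The lowest M1 array lay well above the highest control array. SNAP25 rose by 1.37 ± 0.16 with the block (adjusted p = 0.00479), and its 2 probe sets differed by 1.54 and 1.22 without it. SCRN1, secernin, which is linked to regulated exocytosis, rose by 0.70 ± 0.09 (adjusted p = 0.0108). CHRNA9, a nicotinic acetylcholine receptor subunit, had signals between 4.26 and 5.26 in M1, against 3.72 and 3.75 in control with luciferase and 3.75 and 3.59 in control without it. The 4 control arrays and 1 of the M1 arrays were below the lower quartile, and CHRNA9 rose by 1.30 ± 0.15 with the block (adjusted p = 0.00353). SNAP25 was the 1 called member among the 46 measured genes of vesicle traffic and small GTPases, whose median with the block was -0.026.

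SORBS2, MICAL2 and COL3A1 were further rises with the block. SORBS2, an adaptor between actin and focal adhesions, had signals of 8.08, 7.78 and 8.49 in M1, against 6.70 and 7.61 in control with luciferase and 6.41 and 7.06 in control without it. It rose by 0.97 ± 0.13 with the block (adjusted p = 0.00854), and its 2 probe sets differed by 1.17 and 0.14 without it. MICAL2, an enzyme that oxidises nuclear actin, rose by 0.94 ± 0.13 (adjusted p = 0.0108), and its 3 probe sets differed by 1.03, 0.76 and 0.22 without the block. COL3A1, a fibrillar collagen of connective tissue, had signals of 10.9, 10.1 and 9.80 in M1, against 9.05 and 9.43 in control with luciferase and 9.12 and 8.75 in control without it. COL3A1 rose by 1.43 ± 0.17 with the block (adjusted p = 0.00521). Of its 4 probe sets, 3 differed by 1.19 to 1.79 without the block, and the dimmest by 0.067. In contrast, COL1A1, the collagen most often made with it, averaged 7.06 in M1 and 7.09 in control.

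The remaining rises with the block lay between 0.55 and 0.99. CD36, a scavenger receptor for fatty acids and thrombospondin, had signals of 5.06, 4.96 and 5.53 in M1, against 3.94 and 4.15 in control with luciferase and 4.11 and 4.19 in control without it. All 4 control arrays were below the lower quartile, and CD36 rose by 0.99 ± 0.10 (adjusted p = 0.00315). Its 3 probe sets differed by 1.09, 0.22 and 1.18 without the block. HES1, a transcriptional repressor induced by Notch, rose by 0.79 ± 0.12 (adjusted p = 0.0221), although its M1 signals of 6.05, 6.65 and 5.55 overlapped control signals of 5.54 and 5.34 with luciferase and 5.88 and 5.21 without it. The HES1 probe sets differed by 0.59, 0.46 and 0.15 without the block. MFSD1, a lysosomal transporter, rose by 0.74 ± 0.10 (adjusted p = 0.00854). FGF18, a growth factor of cartilage and bone, rose by 0.72 ± 0.10 (adjusted p = 0.0146), but its 4 other probe sets differed by 0.024 to 0.27 without the block. COCH, an extracellular protein of the inner ear, rose by 0.55 ± 0.08 (adjusted p = 0.0225).

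The largest of the 11 falls with the block was that of FBN2. FBN2, a fibrillin that forms microfibrils and holds TGF-beta family proteins, had signals of 6.06, 6.55 and 8.18 in M1, against 7.69 and 8.55 in control with luciferase and 8.59 and 9.55 in control without it. M1 replicates 1 and 2 lay below every control array, whereas M1 replicate 3 lay above 1 of them. FBN2 fell by 2.06 ± 0.29 with the block (adjusted p = 0.0148). Without a block its difference was -1.67 ± 0.41 (adjusted p = 0.652), and leaving out M1 replicate 3 gave -2.29 (adjusted p = 0.0168). A second, dimmer probe set of FBN2 differed by -0.17 without the block.

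IGFBP3, a carrier of insulin-like growth factors and the only called member among 41 osteolysis and bone-homing factors, had signals of 9.70, 9.95 and 9.64 in M1. Its control signals were 10.4 and 10.2 with luciferase and 10.9 and 10.7 without it. Every M1 array was below every control array, and IGFBP3 fell by 0.68 ± 0.09 with the block (adjusted p = 0.0108). Both of its probe sets were lower in M1 without the block, with differences of -0.79 and -0.94. Without a block its adjusted p was 0.0974.

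CYFIP2, a subunit of the complex that starts branched actin networks, had signals of 6.47, 6.47 and 7.02 in M1, against 7.05 and 7.50 in control with luciferase and 7.14 and 7.99 in control without it. It fell by 0.97 ± 0.16 with the block (adjusted p = 0.0425), and its 2 probe sets differed by -0.77 and -0.59 without it. CYP2J2, an epoxygenase of arachidonic acid, fell by 0.62 ± 0.09 (adjusted p = 0.0146), and all 3 M1 arrays lay below the lower quartile for it. GAS1, a growth arrest and Hedgehog co-receptor gene, had signals of 6.04, 5.60 and 7.32 in M1, against 6.26 and 6.70 in control with luciferase and 6.58 and 7.37 in control without it. DEFB1, a beta-defensin of epithelia, had signals of 8.18, 7.44 and 9.72 in M1, against 8.57 and 8.94 in control with luciferase and 8.77 and 9.40 in control without it. In both genes M1 replicate 3 lay above at least 3 of the 4 control arrays and the other M1 arrays below all of them. With the block, where M1 replicate 3 shares its cluster with no control array, GAS1 fell by 0.81 ± 0.13 (adjusted p = 0.0258) and DEFB1 by 1.02 ± 0.17 (adjusted p = 0.0432). The other falls, between -0.50 and -0.62, were those of PODXL, ENPP4, HCP5, SLCO4A1 and DGLUCY, with adjusted p-values of 0.0225 to 0.0432. Without the block, the 2 probe sets of GAS1 differed by -0.41 and -0.15, and those of ENPP4 by -0.49 and -0.095.

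The calls made with the block differed in how they withstood the removal of single arrays. MCAM, PRKD3 and SNAP25 were called in 7 of 7 fits that each left out 1 M1 or control array. SUSD5, CD36 and CHRNA9 were called in 6 of 7 and lost without M1 replicate 2, and COL3A1 in 6 of 7 and lost without the first control array with luciferase (adjusted p = 0.0505). MFSD1 was called in 5 and SORBS2 in 4 of the 7 fits, FGF18 and HES1 in 2, MICAL2 and SCRN1 in 1, and COCH in 0. The falls were called in at most 3 of 7, FBN2 and CYP2J2 in 3 IGFBP3, CYFIP2, GAS1, DEFB1, ENPP4 and PODXL in 1, and HCP5, SLCO4A1 and DGLUCY in 0. Without M1 replicate 2 the block gave 5 rises and 0 falls, without the first control array with luciferase 10 rises and 0 falls, and without the second control array without luciferase 11 rises and 2 falls. The falls numbered 2 without M1 replicate 1, 4 without the first control array without luciferase, 1 without the second control array with luciferase and 12 without M1 replicate 3.

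Of the 28 genes called with the block, 12 were on at least 1 of 25 lists of pathway genes and 16 on none. These 12 sat on 10 lists, and the other 15 lists had 0 called members in either fit. The medians of the lists lay between -0.0421 and 0.0395 without a block, at most 1.03-fold, beside a median of -0.00785 over all genes. With the block they lay between -0.126 and 0.0301, beside -0.0154 over all genes. Of the 898 genes on these lists, 9 rose and 3 fell with the block, a share of 1.34%, beside 0.234% of all genes in both directions. The lists were drawn up with earlier results of these data known, so the higher share is no evidence about them. CES1 rose and CYP2J2 fell among 37 genes of esterases and xenobiotic metabolism, and HCLS1 and SORBS2 rose among 48 genes of the actin cytoskeleton. In the integrin and adhesion list, MCAM was the 1 called gene of 48, and the M1 arrays lay above all control arrays for 5 members (10.4%, beside 2.35% of all genes), MCAM, TSPAN8, NRCAM, ITGB8 and ITGB2. For ITGB8 all 7 arrays and for ITGB2 6 of the 7 were below the lower quartile.

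Matrix, mesenchymal and signalling lists had few or no called members. Of 47 matrix and microfibril genes FBN2 was the 1 called gene, and of 37 mesenchymal genes COL3A1. Of 42 TGF-beta and BMP genes, 48 extracellular proteases and inhibitors, 40 hypoxia and glycolysis genes, 50 cell cycle genes, 27 lung lineage genes, 30 epithelial junction and keratin genes and 40 interferon-stimulated genes, limma called 0 in either fit. At an unadjusted p under 0.05, these 7 lists held 0 to 6 genes each without the block and 4 to 10 with it. Over all 11963 genes there were 368 and 1138. In the axon guidance list, 4 of 46 genes, EPHA2, PLXNA1, PLXNA2 and SEMA3E, had all M1 arrays below all control arrays, a share of 8.70%. The same held for 4 of 27 p53 and apoptosis genes (14.8%), BAK1, BCL2L1, CDKN1A and PLK2, beside 3.59% of all genes. SEMA3E was below the lower quartile on all 7 arrays. In these 8 genes the differences ran from -0.19 to -0.47, and none was called. S100A4, a calcium-binding protein linked to cell motility, had signals of 10.0, 10.8 and 11.3 in M1, against 9.98 and 9.72 in control with luciferase and 9.70 and 9.90 in control without it. M1 replicate 1 lay just above the highest control array, and the difference of 0.58 ± 0.18 with the block was not called (adjusted p = 0.286).

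**Figure D3:**
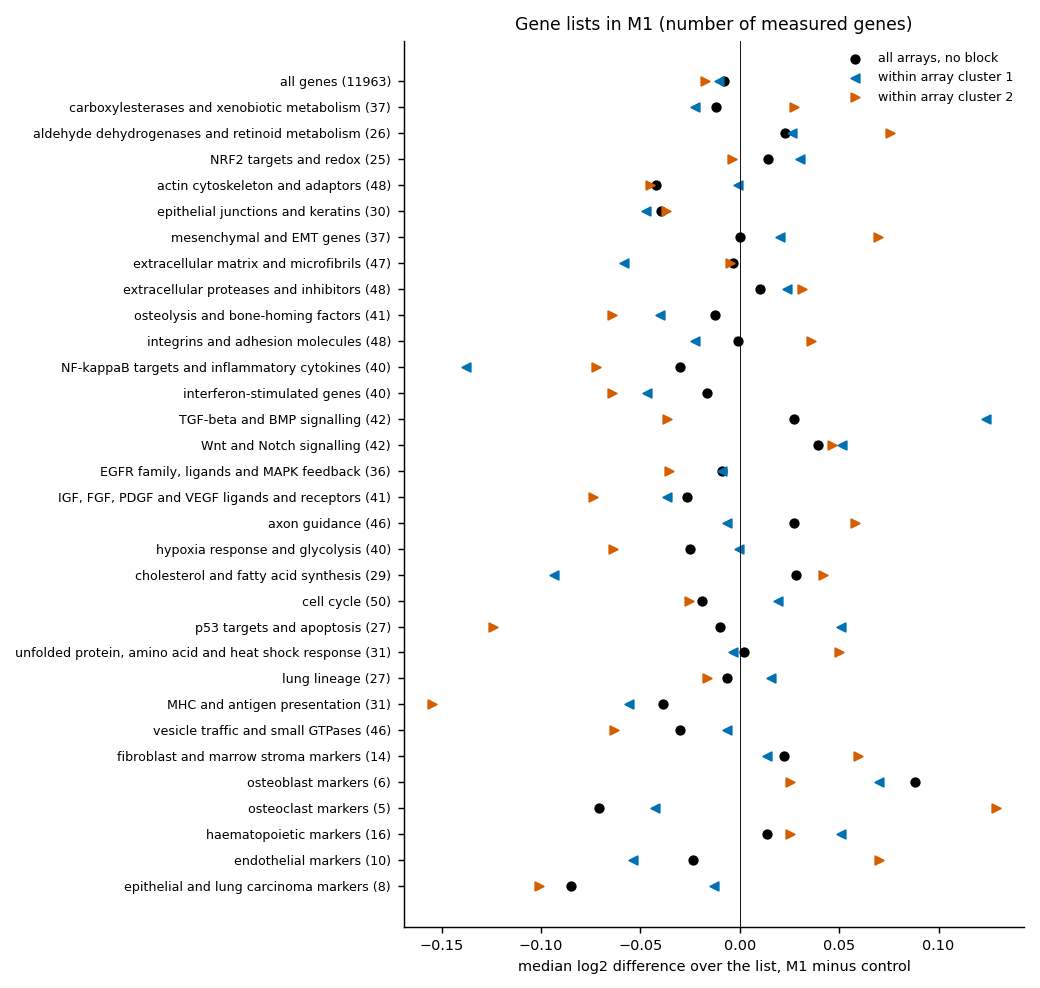
Median log2 difference between M1 and control over each gene list, from all arrays without a block (circles), within array cluster 1 (triangles pointing left) and within array cluster 2 (triangles pointing right); the number of measured genes is in brackets. Without the block the circles of the pathway lists lie between -0.0421 and 0.0395, and the 2 clusters give the same sign for 15 of 25 pathway lists.

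The inflammatory cytokines, which recruit osteoclasts and neutrophils, showed the arrays of M1 at odds with each other. The median of 40 NF-kappaB targets and cytokines was -0.138 within cluster 1 and -0.0726 within cluster 2, and against the mean of all control arrays it was 0.11 on M1 replicate 3. limma called 0 of the 40 in either fit, while 2 without and 16 with the block had an unadjusted p under 0.05. The same counts over all 11963 genes were 368 and 1138. IL6 had signals of 7.86, 8.15 and 10.5 in M1, against 9.02 and 9.74 in control with luciferase and 9.35 and 10.5 in control without it. M1 replicates 1 and 2 were below every control array and M1 replicate 3 was level with the highest of them. IL6 was -1.03 within cluster 1 and -2.23 within cluster 2, and its difference of -1.70 ± 0.34 with the block was not called (adjusted p = 0.0828). CXCL1, a neutrophil attractant, had signals of 11.2, 10.4 and 12.5 in M1, against 10.7 and 12.0 in control with luciferase and 10.6 and 12.2 in control without it. The control arrays differed by more than 1 unit between the clusters, and CXCL1 was not called in either fit. CXCL8, the neutrophil chemokine also made by many carcinomas, averaged 12.9 ± 0.23 in M1 and 12.8 ± 0.12 in control. IL6, CXCL1 and CXCL8 were picked out after their values had been seen.

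Markers of other cell types that could travel with a bone isolate did not rise together. The host was the mouse, and the human probe sets do not measure its cells directly. Of 16 haematopoietic markers 1 rose, HCLS1 itself, while PTPRC, CD3E, LYZ, TYROBP, SPI1, CSF1R and MS4A1 lay below the lower quartile on all 7 arrays. CD14, ITGAM and CD34 lay below it on some arrays. CD3D and HBB lay below it on 1 M1 array each and on 0 control arrays. LCP1, CORO1A and RAC2 lay above it on all 7, and LCP1 averaged 7.58 in M1 and 7.63 in control. The summed signal of the list on the linear scale was 492.0 to 572.0 in M1 and 462.0 to 545.1 in control. Of 14 fibroblast and stroma markers 1 rose, COL3A1, and its summed signal was 3409 to 3988 in M1 and 1924 to 2166 in control. COL3A1 made up 889 to 1952 of that sum in M1 and 431 to 691 in control, and S100A4, also above every control array but not called, 1052 to 2530 in M1 and 830 to 1012 in control. The other 12 markers summed to 543 to 576 in M1 and 490 to 625 in control. Among them, LUM, PDGFRA, FAP and POSTN were below the lower quartile on all 7 arrays, and COL1A1, COL1A2, DCN, ACTA2, PDGFRB, THY1 and FBLN1 above it on all 7. The part of stromal cells in the rise of COL3A1 was not tested. For the 10 endothelial, 6 osteoblast and 5 osteoclast markers, limma called 0 in either fit and 0 had an unadjusted p under 0.05. Their summed signals in M1 were 356.8 to 387.1, 6813 to 7250 and 174.1 to 200.7, and in control 336.0 to 420.5, 6256 to 6951 and 162.9 to 198.3. SPP1, the osteopontin of bone matrix, averaged 12.7 in M1 and 12.7 in control and made up most of the osteoblast sum. The other osteoblast markers averaged 3.71 to 5.25 in M1 and 3.57 to 5.25 in control.

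Direct contrasts of M1 with the other 2 bone-selected lines set no control array against M1. The control arrays still entered the shared spread of both fits and, with the block, the cluster terms. M1 and M4 differed at 3 genes (0.0251%) without a block, and at 14 (0.117%) with it. Leaving out M1 replicate 3 gave 7 calls without a block. M1 and M5 differed at 147 genes (1.23%) without a block, 118 higher and 29 lower in M1, and at 193 (1.61%) with it, 94 higher and 99 lower. The excess of higher genes was thus present without the block and absent with it, and 43 higher and 15 lower genes were called in both fits. M5 replicates 2 and 3 alone formed array cluster 4, so with the block the contrast with M5 rests on M5 replicate 1. Leaving out M5 replicate 1 gave 2366 calls without a block, and leaving out other arrays 22 to 59.

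Without a block, HCLS1 was the 1 gene that rose in M1 against control and was also called higher in M1 than in both other lines. With the block, HCLS1 and CES1 both met this description. HCLS1 signals of 5.61, 5.42 and 4.87 in M1 stood against 3.52, 3.80 and 3.63 in M4 and 3.64, 3.81 and 3.90 in M5. HCLS1 was higher in M1 by 1.65 ± 0.18 than in M4 (adjusted p = 0.00295) and by 1.52 ± 0.18 than in M5 (adjusted p = 0.00185). CES1 signals of 8.05, 7.49 and 7.33 in M1 stood against 5.59, 6.33 and 6.10 in M4 and 5.73, 6.57 and 6.20 in M5, so every M1 array was above every array of the other lines. For CES1, M1 exceeded M4 by 1.62 ± 0.25 (adjusted p = 0.0656 without a block and 0.0333 with it) and M5 by 1.46 ± 0.25 (adjusted p = 0.0194), or by 1.89 ± 0.35 with the block (adjusted p = 0.0290). CRYBG1 averaged 8.27 in M1, against 7.64 in M4 and 7.50 in M5. Its difference from M4 of 0.62 ± 0.16 was not called, and that from M5 of 0.77 ± 0.16 was (adjusted p = 0.0449), although not with the block (0.373).

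Other genes that rose or fell in M1 with the block differed in how they stood against M4 and M5. MCAM averaged 7.04 in M1, against 6.32 in M4 and 6.28 in M5. PRKD3 averaged 9.70 in M1, against 9.48 in M4 and 9.47 in M5. Neither gene differed from M4 by a called amount in either fit, and PRKD3 was lower than in M5 only with the block, by -0.66 ± 0.14 (adjusted p = 0.0462). The PRKD3 signals in M5 were 10.4, 9.14 and 8.89, and the block difference rests on the first of them. Without the block PRKD3 was higher in M1 than in M5, by 0.24 ± 0.29, and was not called. FBN2 averaged 6.93 in M1, against 8.74 in M4 and 4.56 in M5. FBN2 was higher in M1 than in M5 by 2.37 ± 0.43 (adjusted p = 0.0225), and its difference of -1.81 ± 0.43 from M4 was not called. CD36 was called in both contrasts with the block alone, higher in M1 than in M4 by 0.95 ± 0.11 (adjusted p = 0.00600) and lower than in M5, with a difference of -2.17 ± 0.16 (adjusted p = 9.26e-05). The CD36 signals in M5 were 7.35, 5.40 and 5.24, and the block difference rests on the first of them. Without the block the difference from M5 was -0.81 ± 0.40. CHRNA9 was likewise called lower in M1 than in M5 with the block alone, with a difference of -2.67 ± 0.22 (adjusted p = 2.05e-04). Its signals in M5 were 7.56, 5.40 and 5.49, and the block difference rests on the first of them. Without the block the CHRNA9 difference from M5 was -1.31 ± 0.44 (adjusted p = 0.194). COL3A1 and SCRN1 were higher in M1 than in M5 by 1.72 ± 0.32 (adjusted p = 0.0226) and 1.24 ± 0.12 (adjusted p = 9.89e-04).

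Besides HCLS1, the 2 genes that separated M1 from M4 without a block were IL13RA2 and CRIP1. IL13RA2, a decoy receptor for interleukins, had signals of 9.93, 9.75 and 9.85 in M1, against 4.43, 6.26 and 5.84 in M4. It was higher in M1 by 4.34 ± 0.40 (adjusted p = 9.80e-04), the largest of the 3 differences. CRIP1, a LIM-domain protein, had signals of 4.90, 4.97 and 5.09 in M1, against 6.33, 5.93 and 6.25 in M4. It was lower in M1 by -1.19 ± 0.16 (adjusted p = 0.0186), a call that leaving out M1 replicate 1 or 2 or M4 replicate 1 or 3 ended, with adjusted p-values of 0.0847 to 0.183.

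**Figure D4:**
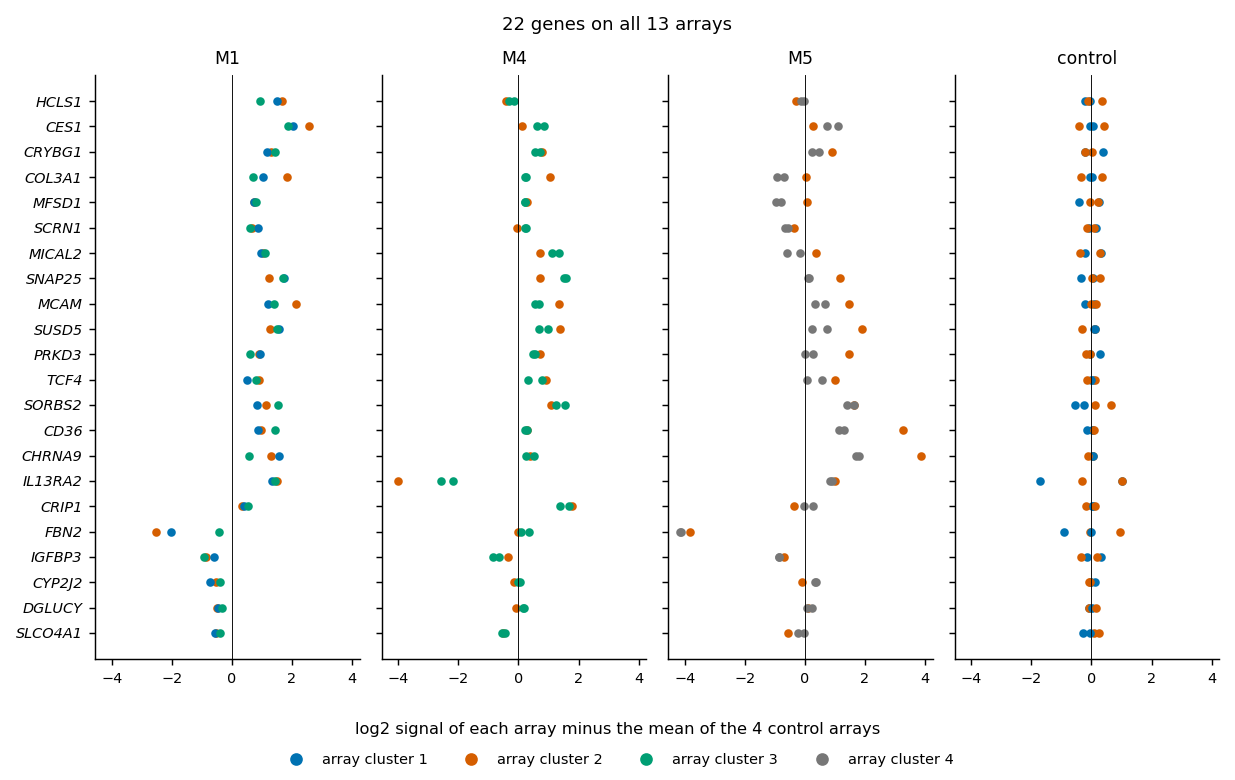
Log2 signal of 22 genes on each array of M1, M4, M5 and control, minus the mean of the 4 control arrays; points are arrays, coloured by array cluster. The 3 M1 arrays hold the highest HCLS1 signals of the 13, from 4.87 to 5.61, while IL13RA2 is at control level or above in M1 and lowest in M4, where 4.43, 6.26 and 5.84 were its signals.

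The choice of control mattered for some genes. Against control with luciferase alone, 1 gene was called without a block and 19 with it, and against control without luciferase alone 2 and 46. CES1 was higher by 2.38 ± 0.28 against control with luciferase (adjusted p = 0.0194) and by 1.92 ± 0.28 against control without it (adjusted p = 0.0507). HCLS1 and CRYBG1 were higher by 1.20 ± 0.20 and 1.09 ± 0.18 against control with luciferase (adjusted p = 0.123 for both). Against control without luciferase they were higher by 1.52 ± 0.20 (adjusted p = 0.0236) and 1.51 ± 0.18 (adjusted p = 0.0219).

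Some genes, named after their values had been seen, gave opposite or unequal answers against the 2 kinds of control. ALDH1A1, an aldehyde dehydrogenase of retinoid metabolism, had signals of 8.76, 8.86 and 10.3 in M1, against 7.23 and 7.29 in control with luciferase and 9.82 and 9.42 in control without it. With the block it was higher by 1.56 ± 0.12 against control with luciferase (adjusted p = 7.73e-04) and lower by -0.80 ± 0.12 against control without it (adjusted p = 0.0224). VAMP8, a vesicle fusion protein of late endosomes, had signals of 6.64, 6.82 and 7.18 in M1, against 5.26 and 5.47 in control with luciferase and 6.91 and 7.26 in control without it. It was higher by 1.33 ± 0.15 against control with luciferase with the block (adjusted p = 0.00604), and its difference of -0.39 ± 0.15 from control without luciferase was not called. IL13RA2 ran the other way, with control signals of 9.43 and 9.45 with luciferase and 6.73 and 8.11 without it. Its M1 signals were 0.40 ± 0.44 from control with luciferase and 2.43 ± 0.44 from control without it, and neither difference was called, although the second came close with the block (2.13 ± 0.39, adjusted p = 0.0502).

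A shift over chromosome 5 was seen beside these single genes, and was picked out after the values of all chromosomes had been seen. Among genes above the median signal, the 277 on chromosome 5 had a median difference of -0.158, which is 1.12-fold lower in M1, against -0.0116 for the 5801 on other chromosomes. Of the 277 genes, 254 (91.7%) had lower means in M1, against 54.4% elsewhere. The M1 arrays lay below all control arrays for 47 of them (17.0%), against 4.24% of all 6078 genes above the median signal, and above all control arrays for 2 (0.722%). Chromosome 5 had the lowest median of the 22 numbered autosomes and X, and the next lowest, chromosome 9, stood at -0.0332. Within cluster 1 the median was -0.166 and within cluster 2 -0.207. Genes of chromosome 5 at or below the median signal had a median of -0.0131.

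The shift ran along the chromosome and differed between arrays. In 4 consecutive segments holding equal numbers of its genes to within 1, the medians were -0.180, -0.105, -0.172 and -0.158. On single arrays, against the mean of all controls, the medians were -0.178, -0.210 and -0.0536 in M1, against -0.115 and -0.0182 in control with luciferase and 0.0564 and 0.0911 in control without it. All M1 arrays were below zero, but 1 control array with luciferase was lower than M1 replicate 3. The median was -0.0900 against control with luciferase and -0.211 against control without it, so the size depended on the control. Between the lines, the median on chromosome 5 was 0.0350 for M1 minus M4 and -0.166 for M1 minus M5. Against the mean of all controls, it was -0.176 in M4 and -0.0108 in M5, beside -0.158 in M1. The shift was thus not particular to M1.

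The 3 single genes of chromosome 5 given here were picked out after their values had been seen. On their chosen probe sets they differed by -0.317 to -0.345 without a block, more than the median of -0.158 on the chromosome. ETF1, a translation termination factor, had signals of 11.25, 11.28 and 11.24 in M1, against 11.55 and 11.49 in control with luciferase and 11.65 and 11.60 in control without it. SQSTM1, the autophagy receptor p62, had signals of 11.73, 11.60 and 11.71 in M1, against 11.75 and 11.91 in control with luciferase and 12.15 and 12.26 in control without it. TCOF1, the nucleolar protein treacle, differed by -0.35 ± 0.09 with the block. A second TCOF1 probe set of similar signal differed by only -0.105 with the block and -0.215 without it. The second probe sets of ETF1 and SQSTM1 differed by -0.21 and -0.34 without the block. On the chosen probe set of each of the 3 genes all M1 arrays lay below all control arrays. None of the 3 was called (adjusted p = 0.186 to 0.224 with the block). Of the 28 genes called with the block, 3 lie on chromosome 5, FBN2 and CYFIP2 among the falls and FGF18 among the rises, and 4.24% of all genes tested lie there.

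**Figure D5:**
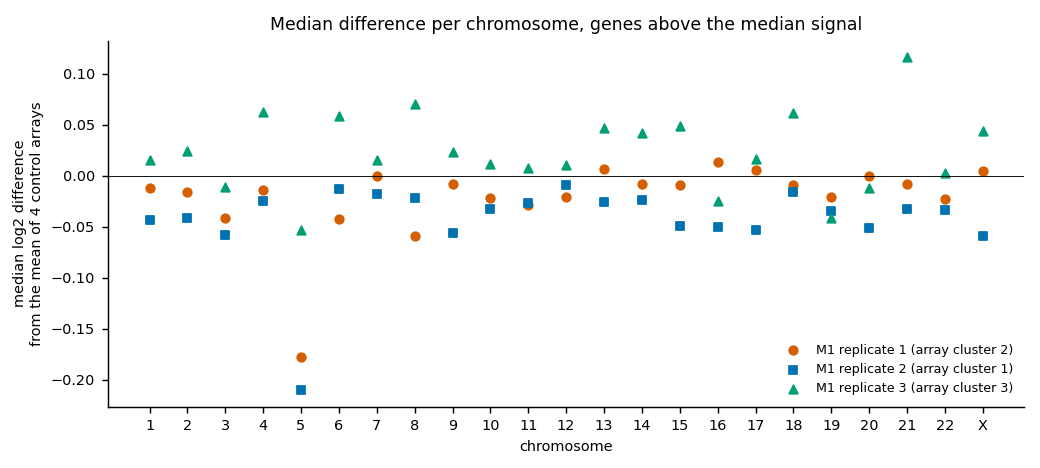
Median log2 difference of each M1 array from the mean of the 4 control arrays, over the genes above the median signal on each chromosome (horizontal axis). On chromosome 5 the medians were -0.178, -0.210 and -0.0536 for M1 replicates 1, 2 and 3.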

How the data were processed

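RNA of M1, M4, M5 and control cells was measured on Affymetrix arrays. For 22277 probe sets, the authors deposited log2 signals made by RMA according to the submitters' processing notes, with version and genome build not given in the sources used here. The 62 control probe sets were left out, 19064 named 1 gene, 1043 several and 2108 none, and the 3151 of the last 2 kinds were fitted separately. Each gene was read by its brightest probe set on average, giving 11963 genes, of which 11954 matched the RefSeq table of GRCh38.p14, and no dim gene was removed. Pairs of arrays correlated at 0.975 to 0.998 across genes, and none held equal values.

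limma 3.58.1 (R 4.3.3) fitted 5 group means over 13 arrays with lmFit and eBayes, with Benjamini-Hochberg adjustment over all genes and calls at 0.05. Array clusters came from Ward clustering of the control probe sets and were fitted as a block. The labels name no batches. Errors are limma's standard errors, or SDs where stated. Gene lists and chromosomes are described without a test. The code was tested on simulated data.

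The genes, lists and comparisons were chosen with earlier results of these data known. Named were called genes whose higher mean lay above the median and whose arrays did not overlap, genes called in both fits, called members of lists, the 4 genes of the published study, and genes separating M1 from both other lines; other genes, among them those called only with the block, were named after their values were seen. Alternatives were other blocks, arrays, priors, probe sets, normalizations, thresholds and controls, and leaving out each array.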

Additional observations from a re-analysis of the deposited data

Results flagged for a closer look

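Differences between M1 and another line were singled out where the direct contrast was called without a block. The gene also had to be called against control in either fit. Contrasts called only with the block, such as those of CES1 and CD36 with M4, are not listed here. Against M4 this held for HCLS1, higher in M1 by 1.65. Against M5, M1 was higher for FBN2 by 2.37, COL3A1 by 1.72, HCLS1 by 1.52, CES1 by 1.46, MFSD1 by 1.32, SCRN1 by 1.24, MICAL2 by 1.17 and CRYBG1 by 0.768 (log2). It was lower than M5 for CYP2J2, with a difference of -0.742, and for DGLUCY, with -0.582. FBN2 thus lay below control in M1 and lower still in M5, where its mean was 4.56.

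Signal also appeared in probe sets outside the gene tests. Of 3151 probe sets that name several genes or none, 0 were called in M1 against control without a block by limma and 7 with the array clusters as a block, 5 higher and 2 lower in M1.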

How the results depend on the processing

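The count of rises in M1 against control, 3 without a block, was 17 with the array clusters as a block, 12 with clusters of the 45 spike-in probe sets, 5 with only the 7 arrays compared and 1 against control with luciferase alone. Leaving out single arrays gave 0 to 3, with 0 when M1 replicate 1 or the first control array without luciferase was left out. The count of falls, 0 without a block, was 11 with the array clusters, 1 with the spike-in clusters, 1 with an intensity trend and robust prior, and 0 to 1 when arrays were left out. With the array clusters as a block, a trend and robust prior gave 35 rises and 38 falls, the spike-in clusters gave 1 fall, and leaving out arrays gave 5 to 16 rises and 0 to 12 falls. M1 and M4 differed at 3 genes, at 14 with the array clusters and at 2 to 7 when arrays were left out. They differed at 1 among genes whose mean over all arrays lay above the median. M1 and M5 differed at 147 genes, at 97 with a replicate block and at 22 to 2366 when arrays were left out. Against control without luciferase the count was 2, and 46 with the array clusters. Against control with luciferase it was 1, 19 with the array clusters and 2 with a replicate block. The difference of DEFB1 without a block, -0.47, ran from -1.11 without M1 replicate 3 to 0.0290, a reversed sign, without M1 replicate 2. In the other alternatives, 571 of 650 values of single genes counted as unchanged. Tested values did so by keeping their direction and their side of the threshold. Untested values within a cluster did so by keeping their direction and moving less than the SD of the M1 arrays. Most of these genes were not called without a block, so unchanged mostly means that they stayed uncalled. Another 40 values passed the threshold newly and 20 untested values moved further. The 18 that no longer passed it could come only from the few genes called without a block. Of 96 counts, 61 stayed within 1.5 times. The cause of these changes was not tested.

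The labels do not say that replicate numbers pair the arrays. Deviations of same-numbered M1 and control arrays from their group means correlated at -0.286 to -0.512, which follows the array clusters. With 2 arrays of each kind of control, the values for crossed numbers, 0.286 to 0.512, are the same values with the sign turned. The replicate block left the M1 comparison with control at 3 rises and 0 falls. Probe sets below the lower quartile, such as those of HCLS1 and CD36 in control, give less certain folds, and the array gives no detection calls here. With 3 and 4 arrays, small differences may have been missed.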
